A study of Mus musculus with 80 samples.

Results

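A set of 40 genes of fatty acid oxidation was followed through a fast in the nuclei of mouse hepatocytes and liver macrophages. They are 40 of the 20105 genes in the deposited count table, chosen by symbol, as a list of enzymes and carriers of mitochondrial and peroxisomal beta-oxidation. The rule used no counts, but the list was chosen with earlier results of these data known. All 40 were found and all 40 passed the low-count filter in both cell types. Sorted by role, 6 are acyl-CoA dehydrogenases, 7 catalyse the later mitochondrial steps, 3 hand electrons to the respiratory chain, 11 are peroxisomal, 4 are acyl-CoA synthetases, 5 carry or bind fatty acids and 4 handle carnitine or coenzyme A.

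The animals were female HEP-INTACT and MAC-INTACT mice, lines in which the nuclei of hepatocytes or of macrophages carry a tag, so that they can be pulled out of a liver with beads (INTACT). Both the fasted and the fed animals carried the tag. Fasted mice lost their food at zeitgeber time 12, when the active phase of a mouse begins, and livers were taken 3, 8, 16 and 24 h later, at zeitgeber times 15, 20, 4 and 12. Fed mice had food throughout and were killed at the same 4 times, so each fasted group had a fed group of its own hour. In each line every one of these 8 groups has 4 tagged libraries, 32 per line, and 1 library of unsorted liver nuclei pooled from 4 mice, 16 pools in all. Strain, age, the promoter behind the tag and the number of mice per tagged library were not stated in the labels. The p-values therefore reflect the spread between libraries, which may be technical.

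Beta-oxidation shortens a fatty acid by repeated rounds of dehydrogenation, hydration, renewed dehydrogenation and thiolysis. Before it can enter, a fatty acid is taken up, joined to coenzyme A by an acyl-CoA synthetase and, for mitochondria, carried across the inner membrane as a carnitine ester. Mitochondria burn most dietary chain lengths, while peroxisomes handle very long, branched and dicarboxylic chains. In the fasted liver the pathway feeds ketone body synthesis, and many of its genes are textbook targets of the nuclear receptor PPARα.

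The libraries hold nuclear RNA, so the counts, summed over whole gene bodies, are mostly of RNA still in the nucleus. Counts assigned to genes came to 12597786 to 30089561 per hepatocyte library, 14968505 to 44694933 per macrophage library and 13246494 to 35514304 per liver pool. The 40 genes took 0.511% to 1.73% of the counts of a hepatocyte library and 0.279% to 0.796% of those of a macrophage library. Levels are given as CPM, counts per 1000000 of the scaled library total, and each fold change is log2 of fasted over fed with its standard error (SE). A gene is called risen or fallen where the edgeR quasi-likelihood test gave a Benjamini-Hochberg adjusted p under 0.05 over all genes tested. Kupffer cell markers followed the labels in both lines, and markers of other cell types did so in part. Of 19 hepatocyte markers, 5 were higher in hepatocyte-tagged nuclei than in the liver pools and none was lower, with a median of 1.18-fold. Of all 13065 genes tested, 28.9% were higher and 20.5% lower, so these markers were called higher at about the share of all genes. Of 6 cholangiocyte (bile duct) markers tested in hepatocyte-tagged nuclei, 1 was higher and 2 were lower. In macrophage-tagged nuclei 11 of 15 endothelial markers were lower than in liver and 4 higher, Mrc1 (6.9-fold) and Cdh5 (5.95-fold) most. Of all 13679 genes tested in that line, 40% were lower and 37.2% higher. All 20 Kupffer cell markers were higher in macrophage-tagged nuclei than in the liver pools of their line, with a median of 16.5-fold, and 18 of 20 were lower in hepatocyte-tagged nuclei, as were all 15 endothelial and all 12 stellate cell markers tested. RNA of hepatocytes was still abundant in the macrophage-tagged libraries, where none of the 19 hepatocyte markers was at 0 and their median level was 0.428 of that in liver. In each line 1 library stood furthest from its own group, replicate 3 of the 3 h fasted macrophage group (mean correlation of log2 CPM across genes with its group 0.939) and replicate 3 of the 16 h fasted hepatocyte group (0.965). In bulk libraries, fewer cells of a type and less RNA per cell cannot be told apart.

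Fasting raised most of these genes in hepatocyte nuclei. After 3 h, 26 of 40 rose and 3 fell, where 19.5% of the 12942 genes tested rose and 20.4% fell. After 8 h, 28 rose and 6 fell, against 18% and 20.7% of all genes. The counts were 22 risen and 2 fallen after 16 h, against 9.55% and 8.55%, and 14 risen and 6 fallen after 24 h, against 11.6% and 12.4%. The median log2 fold change of the 40 was 0.76, 1.1, 0.54 and 0.33 at 3, 8, 16 and 24 h, while that of all genes stayed between -0.03 and 0.01. The lowest of the 4 fasted libraries lay above the highest of the 4 fed ones in 25, 28, 21 and 10 members at the 4 times, a separation that 20.5%, 17.5%, 7.49% and 12.9% of all genes showed. The reverse held in 2, 5, 2 and 4 members, against 20.3%, 19.6%, 8.34% and 12.4% of all genes. Without replicate 3 of the 16 h fasted group, 19 members rose and 1 fell at 16 h.

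Markers of other cell types also moved with feeding in these hepatocyte libraries. The summed level of 8 cholangiocyte (bile duct) markers was lower after fasting at all 4 times without overlap, at 140 to 192 CPM in fasted and 326 to 450 CPM in fed libraries at 3 h and 102 to 169 CPM and 423 to 518 CPM at 8 h. That of 20 Kupffer cell markers was higher at 3 h, at 415 to 448 CPM in fasted and 290 to 332 CPM in fed libraries, and at 8 h, at 347 to 422 CPM and 244 to 302 CPM, and overlapped at 16 and 24 h. The 19 hepatocyte markers summed to 23600 to 32900 CPM in fasted and 16600 to 20100 CPM in fed libraries at 3 h and overlapped at the later times. The 12 stellate markers were lower after fasting at 16 h alone (44.4 to 65 CPM in fasted and 91.2 to 147 CPM in fed libraries), and the 15 endothelial markers higher at 24 h alone (227 to 260 CPM and 119 to 212 CPM). The lymphocyte markers, at most 9.18 CPM in sum, overlapped at every time. No marker was at 0 in all libraries of a group, and the part of these shifts in the changes of the 40 genes was not tested.

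**Figure D1:**
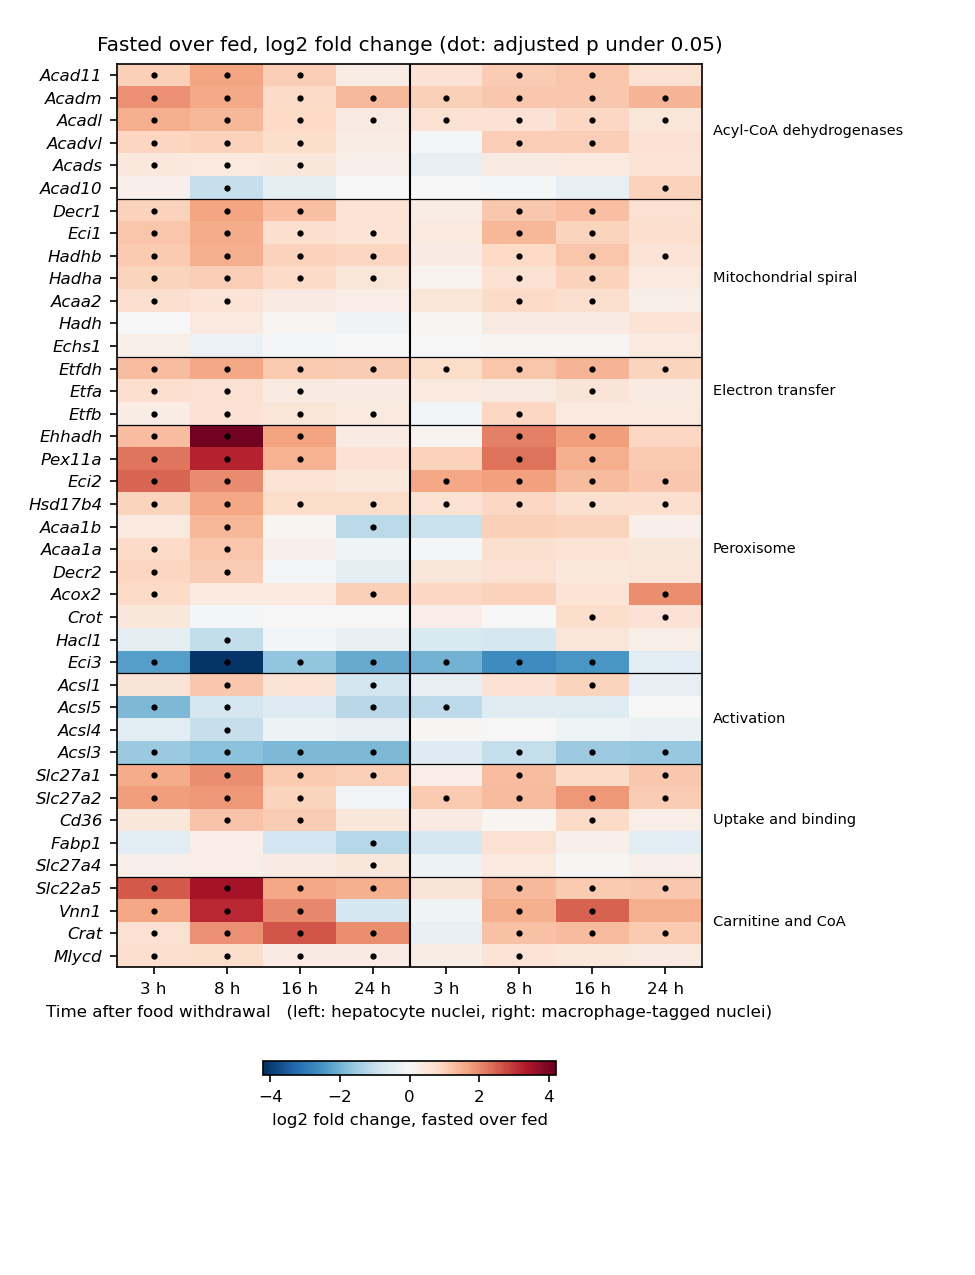
Log2 fold change, fasted over fed, of the 40 genes (rows, grouped by role) in hepatocyte-tagged nuclei (left 4 columns) and macrophage-tagged nuclei (right 4 columns) after 3, 8, 16 and 24 h; a dot marks an edgeR adjusted p under 0.05, with 4 libraries per group. Red fills most rows in the hepatocyte columns at 3 and 8 h and pales at 24 h, while Acsl3 and Eci3 are blue throughout the hepatocyte columns.

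The genes fell into a few patterns over the 4 times. How many of all genes tested showed each pattern was not counted. A group of 12 rose at every time, and they span the whole route: the dehydrogenases Acadl and Acadm, both subunits of the trifunctional protein (Hadha and Hadhb), the isomerase Eci1, the electron carriers Etfb and Etfdh, the peroxisomal enzyme Hsd17b4, the fatty acid transporter Slc27a1, the carnitine handlers Crat and Slc22a5, and the malonyl-CoA decarboxylase Mlycd. Another 9 rose at 3 of the 4 times, 6 at 2 and 3 at a single time. Acsl3 and Eci3 fell at all 4 times and Acsl5 at 3 of them. Hadh, Echs1 and Crot passed the test at no time. Acaa1b and Acsl1, which rose at 8 h alone, fell at 24 h.

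The acyl-CoA dehydrogenases carry out the first step of each mitochondrial round, each on its own range of chain lengths. Of the 6 measured, 5 rose and none fell at 3 h, 5 rose and 1 fell at 8 h, 5 rose at 16 h and 2 rose at 24 h. Acadm, the medium-chain enzyme (chromosome 3, 153922353 to 153944643 on the minus strand, mm10), had 342, 254, 242 and 247 CPM in the 4 fasted libraries at 3 h, against 65.5, 80, 74.1 and 67 CPM in the fed ones. Every fasted library was above every fed one, and replicate 1 was the highest of the fasted set. Its log2 fold change was 1.92 ± 0.20 (edgeR adjusted p = 2.39e-08) at 3 h, 1.58 ± 0.19 at 8 h, 0.80 ± 0.19 at 16 h and 1.36 ± 0.19 at 24 h.

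Acadl, the long-chain enzyme, had 202, 171, 170 and 165 CPM in fasted hepatocyte nuclei at 3 h and 64.2, 56.1, 70.2 and 57.3 CPM in fed ones. The 2 groups lay far apart, with a log2 fold change of 1.51 ± 0.15 (edgeR adjusted p = 1.05e-08). At 24 h the fasted libraries of Acadl had 144, 138, 161 and 126 CPM and the fed ones 95.9, 104, 140 and 96.5 CPM, so the groups overlapped. The change at that time was 0.38 ± 0.14 (adjusted p = 0.0492, edgeR), a call that was lost on leaving out any of 6 of the 8 libraries in turn. Acad11, a member of the same family that overlaps Ackr4 on the other strand, rose by 1.66 ± 0.15 on the log2 scale at 8 h. Acadvl, the very-long-chain enzyme, rose at 3, 8 and 16 h by 0.90, 0.96 and 0.75, and Acads, the short-chain enzyme, rose at the same times by 0.44, 0.42 and 0.46. Acad10 was the member that fell, by 0.98 ± 0.30 at 8 h, with 22.6, 21.4, 15.9 and 38.9 CPM in fasted libraries and 45.6 to 49.8 CPM in fed ones.

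In the later mitochondrial steps, 5 of 7 genes rose at 3 h, 5 at 8 h, 4 at 16 h and 3 at 24 h, and none fell. Hadha and Hadhb encode the 2 subunits of the trifunctional protein, which takes long-chain intermediates through hydration, dehydrogenation and thiolysis. The genes lie head to head on chromosome 5 (Hadha at 30118304 to 30154980 on the minus strand, Hadhb at 30155253 to 30184593 on the plus strand, mm10), with 272 bases between their starts. That shared stretch is shown because both genes rose at all 4 times; it is given as the 250 bases before the start of Hadhb, from RefSeq on GRCm38.p6, chr5:30155003-30155252, plus strand, with none of the motifs searched and so no capitals.
Hadhb: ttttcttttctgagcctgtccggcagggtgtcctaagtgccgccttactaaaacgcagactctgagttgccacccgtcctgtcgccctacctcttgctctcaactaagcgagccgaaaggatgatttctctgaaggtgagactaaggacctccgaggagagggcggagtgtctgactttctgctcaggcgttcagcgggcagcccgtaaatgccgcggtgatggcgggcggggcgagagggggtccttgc

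Hadha had 191, 223, 239 and 252 CPM in fasted hepatocyte nuclei at 8 h and 116, 110, 103 and 109 CPM in fed ones. No fasted library overlapped a fed one, and the change was 1.05 ± 0.15 on the log2 scale (edgeR adjusted p = 2.21e-06). Its partner Hadhb had 141, 186, 197 and 236 CPM when fasted and 62.3, 61.7, 63.9 and 77.4 CPM when fed, again without overlap, a change of 1.52 ± 0.21 (adjusted p = 1.97e-06, edgeR). At 24 h both were still called, at 0.51 ± 0.14 for Hadha and 0.91 ± 0.21 for Hadhb, though Hadha missed the threshold without replicate 3 of the fasted group (adjusted p = 0.0501, edgeR). Hadha overlaps Gareml on the other strand, and whether the counting used strand was not stated in the labels, so reads of the 2 genes may not be told apart.

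Eci1 and Decr1 prepare unsaturated chains for the spiral. Eci1 rose at all 4 times, most at 8 h (1.55 ± 0.17), and Decr1 rose by 0.95, 1.66 and 1.27 at 3, 8 and 16 h, with a value of 0.58 at 24 h that missed the threshold (edgeR adjusted p = 0.0528). Acaa2, the mitochondrial thiolase, rose by 0.72 at 3 h and 0.58 at 8 h. Echs1, the enoyl-CoA hydratase for short chains, had values between -0.24 and 0.24 and Hadh, the matching dehydrogenase, between -0.15 and 0.43, with no call. The spiral thus held both genes that changed at every time and genes that passed at none.

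Electrons from the dehydrogenases pass to the electron transfer flavoprotein, made of Etfa and Etfb, and from there to ubiquinone through Etfdh. All 3 genes rose at 3, 8 and 16 h, and Etfb and Etfdh rose at 24 h. Etfdh changed most, by 1.30 ± 0.18, 1.62 ± 0.18, 1.10 ± 0.18 and 1.07 ± 0.18 on the log2 scale at 3, 8, 16 and 24 h. Etfdh had 202, 221, 243 and 292 CPM in fasted libraries at 8 h and 72.6, 72.4, 82.5 and 84.7 CPM in fed ones. Etfa and Etfb moved less, with their largest changes at 0.69 for Etfa and 0.61 for Etfb.

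The peroxisomal genes held the largest rise and the largest fall of the whole set. Of 11, 7 rose and 1 fell at 3 h, 7 rose and 2 fell at 8 h, 3 rose and 1 fell at 16 h, and 2 rose and 2 fell at 24 h. Ehhadh, the bifunctional enzyme of peroxisomal hydration and dehydrogenation (chromosome 16, 21761285 to 21787834 on the minus strand, mm10), had 1020, 1000, 2010 and 1410 CPM in fasted hepatocyte nuclei at 8 h. The fed libraries of that hour had 59.2, 95.2, 72.2 and 97.3 CPM. The lowest fasted value was far above the highest fed one, and the log2 fold change was 4.07 ± 0.38 (edgeR adjusted p = 5.59e-09), the highest of the 40 at any time.

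The change of Ehhadh was smaller at later times (edgeR F-test of feeding by time, adjusted p = 2.08e-05). At 16 h its fasted libraries had 124, 230, 260 and 175 CPM and its fed ones 72.5, 60.2, 36.3 and 73.4 CPM, a change of 1.70 ± 0.34. At 24 h the fasted libraries had 118, 64.8, 175 and 78.9 CPM and the fed ones 57.1, 107, 83.5 and 94.1 CPM, and the groups overlapped (0.36 ± 0.33, edgeR adjusted p = 0.469). The promoter of Ehhadh is shown as that of the gene with the largest rise: the 250 bases before its start, RefSeq GRCm38.p6, chr16:21787835-21788084, minus strand, with the letters ATTGG, the reverse of a CCAAT box, in capitals at positions -38 to -34 from the start.
Ehhadh: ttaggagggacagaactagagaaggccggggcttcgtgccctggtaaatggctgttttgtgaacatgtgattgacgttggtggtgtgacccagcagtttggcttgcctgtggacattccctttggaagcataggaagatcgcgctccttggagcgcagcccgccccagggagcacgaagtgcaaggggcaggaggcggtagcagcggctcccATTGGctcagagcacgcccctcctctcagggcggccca

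Pex11a, a membrane protein that acts in peroxisome division, had 103, 89.3, 113 and 115 CPM in fasted hepatocyte nuclei at 8 h and 9.35, 9.3, 13.7 and 12.7 CPM in fed ones. The 2 groups did not come near each other, and the change was 3.22 ± 0.26 (edgeR adjusted p = 5.17e-10). It was already 2.24 ± 0.25 at 3 h, 1.46 ± 0.25 at 16 h and, short of the threshold, 0.62 ± 0.24 at 24 h (adjusted p = 0.0551, edgeR). At 24 h, replicate 4 of the fasted group had 24.5 CPM and the other three 53.2 to 58.9 CPM, beside 26.3 to 36.4 CPM in fed libraries. Hsd17b4, the other bifunctional enzyme, which also serves branched chains and bile acid precursors, rose at all 4 times, by 0.94, 1.64, 0.78 and 0.76.

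Eci2 and Eci3, 2 related enoyl-CoA isomerase genes, went opposite ways. They lie in the same orientation on chromosome 13 (Eci2 at 34977748 to 34994144, Eci3 at 34946614 to 34963809, both on the minus strand, mm10), 13938 bases apart. Eci2 had 397, 299, 299 and 292 CPM in fasted libraries at 3 h and 57.7, 54.7, 65.2 and 58 CPM in fed ones, with no overlap. Its log2 fold change was 2.45 ± 0.23 (edgeR adjusted p = 9.6e-09) at 3 h and 2.0 ± 0.23 at 8 h, and it missed the threshold at 16 h (0.59 ± 0.22, adjusted p = 0.0667, edgeR) and 24 h (0.45 ± 0.22, adjusted p = 0.145, edgeR). Eci3 was a far weaker signal and had 0.591, 0.384, 0.277 and 0.324 CPM in fasted libraries at 8 h against 10.1, 4.77, 10.2 and 4.21 CPM in fed ones. All 4 fasted libraries were below all 4 fed ones, and the change was -4.12 ± 0.55 (adjusted p = 1.18e-06, edgeR), the lowest of the 40.

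At the other times Eci3 changed by -2.30 ± 0.51, -1.65 ± 0.51 and -2.12 ± 0.52 at 3, 16 and 24 h. The 16 h call did not survive leaving out any of 4 of its 8 libraries in turn (lowest change -1.62, highest -1.45). The transcripts of the pair are 65.2% identical and 8.86% of the 50-base stretches of the Eci2 transcript occur in that of Eci3; introns, which the counts include, were not compared, so how reads were divided between the pair is uncertain. Eci3 also overlaps 4933417A18Rik on the other strand. The 2 promoters are shown because the genes moved apart: over 300 bases around the start they are 51.2% identical. Given are the 250 bases before each start, RefSeq GRCm38.p6, minus strand, chr13:34994145-34994394 for Eci2 and chr13:34963810-34964059 for Eci3, with a CCAAT box of Eci2 at -220 to -216 in capitals and none of the searched motifs in Eci3.
Eci2: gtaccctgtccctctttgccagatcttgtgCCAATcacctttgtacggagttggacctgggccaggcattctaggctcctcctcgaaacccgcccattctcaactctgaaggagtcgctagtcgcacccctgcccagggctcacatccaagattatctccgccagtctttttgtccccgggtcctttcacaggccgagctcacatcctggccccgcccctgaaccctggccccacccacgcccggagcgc
Eci3: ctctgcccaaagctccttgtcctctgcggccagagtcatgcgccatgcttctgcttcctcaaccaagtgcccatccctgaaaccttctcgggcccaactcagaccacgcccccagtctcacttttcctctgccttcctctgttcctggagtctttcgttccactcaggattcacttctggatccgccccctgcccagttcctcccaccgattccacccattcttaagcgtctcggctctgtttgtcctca

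**Figure D2:**
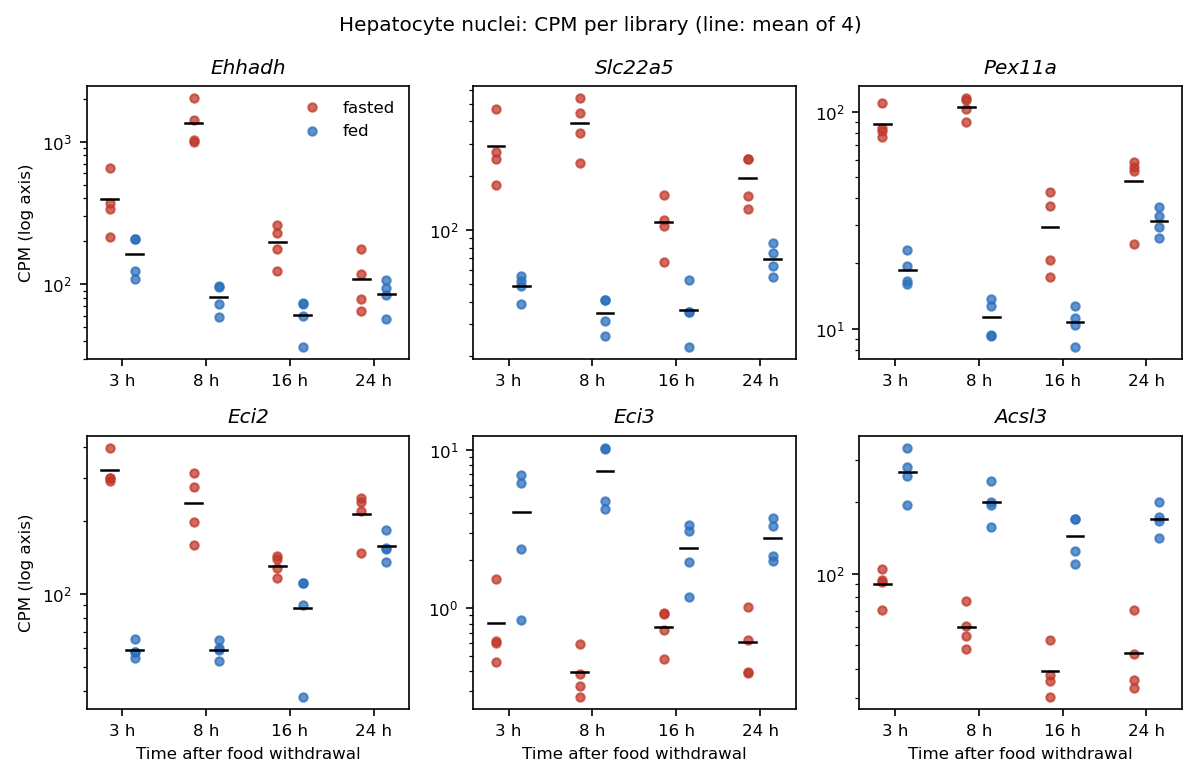
CPM (log axis) of Ehhadh, Slc22a5, Pex11a, Eci2, Eci3 and Acsl3 in each hepatocyte-tagged library after 3, 8, 16 and 24 h; each point is 1 library, 4 fasted and 4 fed at each time. The fasted points of Ehhadh, Slc22a5 and Pex11a stand clear above the fed points at 8 h, and those of Acsl3 stand below the fed points at every time.

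The 2 peroxisomal thiolases, Acaa1a and Acaa1b, cleave the last bond of a round. At 8 h Acaa1a rose by 1.17 ± 0.21 and Acaa1b by 1.39 ± 0.34, with 1420, 1290, 1510 and 1220 CPM of Acaa1b in fasted libraries and 420, 579, 551 and 521 CPM in fed ones. At 24 h the fasted libraries of Acaa1b had 294, 240, 448 and 241 CPM and the fed ones 545, 1110, 684 and 354 CPM, which overlapped. Its change there was -1.14 ± 0.34 (edgeR adjusted p = 0.0165), so the sign at 24 h was opposite to that at 8 h. The pair shares transcript sequence: 34.0% of the 50-base stretches of Acaa1a occur in Acaa1b and 35.5% the other way, so how their reads were divided is uncertain.

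Among the remaining peroxisomal genes, Decr2, which reduces double bonds, rose by 0.90 at 3 h and 1.08 at 8 h. Acox2, an oxidase of branched chains and bile acid intermediates, rose by 0.81 at 3 h and 0.99 at 24 h and missed the threshold between. Hacl1, the lyase of alpha-oxidation, fell by 1.02 ± 0.34 at 8 h. Crot, which makes carnitine esters of medium chains inside peroxisomes, had log2 fold changes between -0.09 and 0.47 and passed at no time.

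Acyl-CoA synthetases, which activate the fatty acid, were the one role in which falls outnumbered rises. None rose and 2 of 4 fell at 3 h, 1 rose and 3 fell at 8 h, 1 fell at 16 h and 3 fell at 24 h. Acsl3, an enzyme known from lipid droplets and the endoplasmic reticulum (chromosome 1, 78657825 to 78707743 on the plus strand, mm10), had 93.6, 105, 92.5 and 70.4 CPM in fasted libraries at 3 h and 335, 193, 256 and 280 CPM in fed ones. At 24 h it had 33.2, 35.7, 70.2 and 46.2 CPM in fasted libraries and 141, 200, 172 and 166 CPM in fed ones. The fasted libraries were below the fed ones without overlap at all 4 times, with changes of -1.56, -1.73, -1.87 and -1.87 and SEs of 0.22 each.

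Acsl5, another long-chain synthetase of liver, had 132, 146, 96.3 and 164 CPM in fasted hepatocyte nuclei at 3 h and 666, 261, 531 and 518 CPM in fed ones. All fasted values were below all fed ones (-1.88 ± 0.26, edgeR adjusted p = 2.36e-06). It also fell at 24 h (-1.17 ± 0.26) and, in a call that 5 of 8 single libraries could remove, at 8 h (-0.71 ± 0.25). Acsl4, which prefers arachidonic acid, fell at 8 h by 0.95 ± 0.26.

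Acsl1, the main synthetase of liver oxidation, went both ways. At 8 h it had 2570, 2060, 3790 and 1970 CPM in fasted libraries and 1020, 1110, 1250 and 1360 CPM in fed ones, which did not overlap (1.13 ± 0.25, edgeR adjusted p = 0.000629). At 24 h it had 589, 551, 1190 and 689 CPM in fasted libraries and 1080, 1080, 1380 and 1560 CPM in fed ones, and 1 fasted library lay among the fed ones. The change at 24 h was -0.76 ± 0.25 (adjusted p = 0.0249, edgeR), and leaving out any of 4 single libraries moved its adjusted p above the threshold, to between 0.059 and 0.0871.

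Uptake and binding genes answered one by one. Slc27a2, a fatty acid transporter and very-long-chain synthetase of liver (chromosome 2, 126553024 to 126588243 on the plus strand, mm10), had 1520, 2360, 1440 and 1550 CPM in fasted libraries at 3 h and 513, 476, 590 and 455 CPM in fed ones. The groups lay well apart, with changes of 1.75 ± 0.20 at 3 h (edgeR adjusted p = 1.18e-07), 1.83 ± 0.20 at 8 h and 0.94 ± 0.19 at 16 h. By 24 h the fasted libraries had 1050, 928, 1260 and 856 CPM and the fed ones 1050, 1350, 1240 and 774 CPM, fully overlapping (-0.11 ± 0.19, adjusted p = 0.719, edgeR).

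Slc27a1, a related transporter best known from muscle and fat, rose at all 4 times by 1.57, 1.94, 1.10 and 1.01. Slc27a4 passed only at 24 h, at 0.47 ± 0.16. Cd36, the fatty acid translocase, had 13.7, 37.1, 28.1 and 18.2 CPM in fasted hepatocyte nuclei at 8 h and 6.79, 8.15, 13.5 and 13.4 CPM in fed ones, close but without overlap (1.21 ± 0.32, edgeR adjusted p = 0.00346). It rose at 16 h as well (1.05 ± 0.31), a call that was lost without replicate 3 of the fasted group (adjusted p = 0.0643, edgeR) or replicate 1 of the fed group (0.0622).

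Fabp1, the abundant fatty acid binding protein of liver, did not join the rise. At 24 h it had 55.6, 43.8, 72.1 and 43.4 CPM in fasted libraries and 117, 134, 136 and 111 CPM in fed ones, with every fasted value below every fed one. The change was -1.21 ± 0.30 (edgeR adjusted p = 0.00442), and at 3, 8 and 16 h the values of -0.49, 0.29 and -0.81 did not pass. Its promoter (chr6:71199629-71199878, plus strand, RefSeq GRCm38.p6) is shown because it is the one among these genes with a direct repeat of the nuclear receptor kind. The capitals mark that repeat, AGGNCANAGGNCA read on the other strand, at -67 to -55, and TATAAA at -30 to -25; the start used by RefSeq lies 9 bases from that of the deposited table.
Fabp1: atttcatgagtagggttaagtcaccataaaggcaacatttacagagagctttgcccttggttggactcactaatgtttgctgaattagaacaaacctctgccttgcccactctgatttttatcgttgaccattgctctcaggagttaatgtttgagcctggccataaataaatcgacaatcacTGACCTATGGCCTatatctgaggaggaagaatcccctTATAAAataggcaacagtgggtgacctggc

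RefSeq promoter windows of 300 bases, 250 before to 50 after the start, were found for 35 of the 40 genes. Searched on both strands, the repeat AGGNCANAGGNCA was in 1 of 35 windows and in 0.381% of all 32851 windows. The single element AGGTCA, which overlaps the repeat of Fabp1, was in 6 of 35, against 16.3% of all windows, CCAAT was in 16 of 35, against 37.4%, and TATAAA was in 1 of 35, against 13.6%. The windows of Hadha and Hadhb have 228 bases in common. These are matches of letters in short windows only.

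The 4 genes of carnitine and coenzyme A handling rose together at 3, 8 and 16 h, and 3 of them at 24 h. Slc22a5, the plasma membrane carnitine transporter (chromosome 11, 53864542 to 53891703 on the minus strand, mm10), had 234, 344, 447 and 537 CPM in fasted hepatocyte nuclei at 8 h and 26, 31.3, 41.1 and 41 CPM in fed ones. The lowest fasted library was several times the highest fed one, and the change was 3.49 ± 0.32 (edgeR adjusted p = 5.6e-09). At 3, 16 and 24 h it was 2.57 ± 0.31, 1.61 ± 0.30 and 1.49 ± 0.30, with no overlap between fasted and fed libraries at any time.

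Crat, the carnitine acetyltransferase, had its largest change at 16 h. Its libraries at that time had 53.2, 87.2, 121 and 60.7 CPM in fasted libraries and 10.8, 12.5, 11 and 16.9 CPM in fed ones, a clear gap, with a change of 2.65 ± 0.22 (edgeR adjusted p = 2e-09). The changes at 3, 8 and 24 h were 0.63 ± 0.21, 1.93 ± 0.21 and 1.95 ± 0.22, and the 3 h call was lost without replicate 1 of the fasted group (adjusted p = 0.089, edgeR). Crat overlaps Dolpp1 on the other strand.

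Vnn1, a pantetheinase that releases the building block of coenzyme A, had 45.6, 44.7, 70.1 and 44.6 CPM in fasted libraries at 8 h and 2.17, 4.82, 10.8 and 5.11 CPM in fed ones. All fasted libraries were above the fed ones (3.18 ± 0.56, edgeR adjusted p = 6.18e-05). It also rose at 3 h (1.61 ± 0.53) and 16 h (2.01 ± 0.54). The 3 h call was lost without replicate 2 of either 3 h group (adjusted p = 0.0561 and 0.0587, edgeR). The 16 h call was lost when the 8 libraries of that time were fitted alone (adjusted p = 0.0587, edgeR). At 24 h the value was -0.71 ± 0.53 without a call. Mlycd, which removes malonyl-CoA, the inhibitor of carnitine palmitoyltransferase, rose a little but at all 4 times, by 0.69, 0.73, 0.34 and 0.36.

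The fasting effect itself changed with time for 21 of 40 members in hepatocyte nuclei (edgeR F-test of feeding by time, adjusted p under 0.05), where 32.8% of all genes did. Fed levels of some members also changed with the hour, in a share not far from that of all genes. Fed libraries differed between the 4 times for 15 members, against 30.1% of all genes, and 8 of the 15 had their highest fed mean at 24 h. Fasted libraries differed for 26 members, against 44.9% of all genes, with the highest mean at 8 h in 18 and the lowest at 24 h in 16. The hours of the highest and lowest means were not counted for all genes, so these may not be particular to the set.

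Slc27a2 shows both sides. Its mean was 1720, 1650, 1580 and 1020 CPM in fasted hepatocyte nuclei at 3, 8, 16 and 24 h, and 508, 465, 821 and 1100 CPM in fed ones, so the fasted mean was lowest and the fed mean highest at 24 h. Eci2 in fed nuclei had means of 58.9, 59.1, 87.4 and 157 CPM over the same times, Acadl 61.9, 66.3, 79.5 and 109 CPM, and Pex11a 18.7, 11.3, 10.7 and 31.3 CPM. Crat ran otherwise, with 79.4, 166, 80.6 and 79 CPM in fasted and 51.3, 43.4, 12.8 and 20.5 CPM in fed nuclei, its fed mean being lowest at 16 h. Acsl5 in fed nuclei was highest at 3 h, with means of 494, 338, 170 and 191 CPM.

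**Figure D3:**
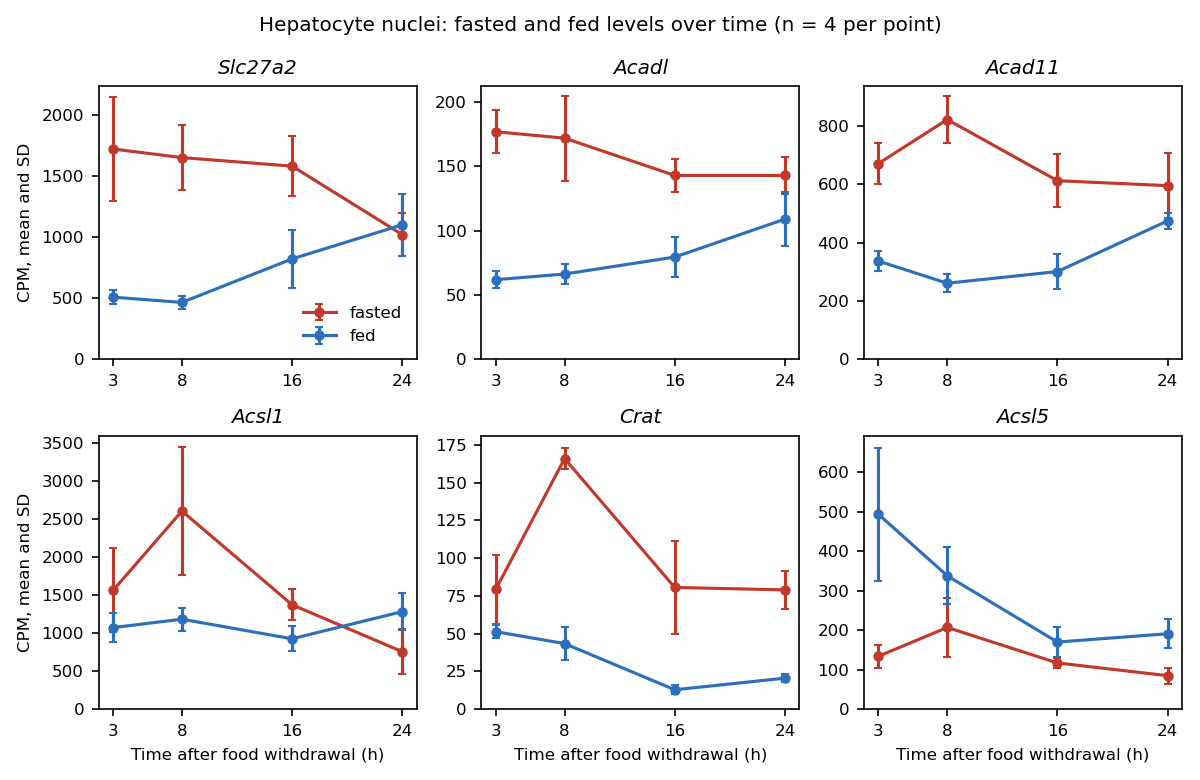
Mean CPM ± SD of Slc27a2, Acadl, Acad11, Acsl1, Crat and Acsl5 in fasted and fed hepatocyte-tagged nuclei (4 libraries each) after 3, 8, 16 and 24 h. The fasted and fed lines of Slc27a2 meet at 24 h, whereas those of Crat stay apart.

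Per kilobase of gene, which allows genes to be set side by side, the highest levels in fed hepatocyte nuclei were 63 CPM per kb for Acaa1b, 35.8 for Fabp1, 33.7 for Hacl1, 20.6 for Slc27a2 and 17.1 for Acsl1 (means of 16 fed libraries over the 4 times). The lowest were 0.519 CPM per kb for Slc27a1, 0.24 for Eci3 and 0.123 for Cd36. In fasted nuclei Acaa1b had 83.1 CPM per kb, Slc27a2 42.4, Fabp1 27.2, Acsl1 24.2 and Hacl1 24, so these same 5 stood at the top. The level of Ehhadh over all times was 19.4 ± 21.2 CPM per kb in fasted nuclei and 3.66 ± 1.82 in fed ones (SD, n = 16 each), the wide spread in fasted nuclei following its peak at 8 h.

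Neighbouring steps outside the list were counted for comparison. Of all genes tested in hepatocyte nuclei, 19.5%, 18%, 9.55% and 11.6% rose at 3, 8, 16 and 24 h, and 12.4% fell at 24 h. Of 6 carnitine shuttle and ketone body genes tested in hepatocyte nuclei, 5 rose at 3, 8 and 16 h and 2 at 24 h, with 1 fall. Cpt1a, the gatekeeper of mitochondrial entry, changed by 2.49 ± 0.23, 1.69 ± 0.22, 0.73 ± 0.22 and 0.46 ± 0.22 at 3, 8, 16 and 24 h, the last without a call. Slc25a20, which carries acylcarnitines across the inner mitochondrial membrane, rose at all 4 times, by 1.44, 1.55, 0.98 and 0.78. The fall was Bdh1, which makes hydroxybutyrate, with -0.94 ± 0.32 at 24 h.

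A wider list of 30 other oxidation, synthetase and binding genes was mixed. At 3 h, 6 rose and 6 fell (19.5% and 20.4% of all genes), and at 8 h, 9 and 10 (18% and 20.7%). At 16 h, 4 of the list rose and 7 fell (9.55% and 8.55% of all genes), and at 24 h, 2 and 9 (11.6% and 12.4%). Its largest changes were falls: Acss2, which activates acetate, by -3.73 ± 0.42 at 3 h, Nudt7, a peroxisomal hydrolase of coenzyme A, by -2.62 ± 0.29 at 3 h, and Fabp5, a binding protein best known from skin, by -4.31 ± 0.61 at 8 h, from low levels (0.182 ± 0.081 CPM fasted and 3.93 ± 0.948 CPM fed, SD, n = 4 each). Of 15 peroxisome assembly genes, 3 rose and 4 fell at 3 h (19.5% and 20.4% of all genes). At 8 h, 5 of them rose and 4 fell (18% and 20.7%), all at both times by less than 1 log2 unit. Pex14 rose by 0.69 ± 0.09 and Pex11g fell by 0.91 ± 0.18 at 8 h, so Pex11a, at 2.24 and 3.22 at these times, lay above the highest of them.

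Of 21 regulators of the pathway, 10 rose and 3 fell at 3 h (19.5% and 20.4% of all genes). At 8 h, 8 rose and 7 fell (18% and 20.7%). At 16 h, 2 rose and none fell (9.55% and 8.55%), and at 24 h, 3 rose and 3 fell (11.6% and 12.4%). Ppara, which encodes the receptor PPARα, had a mean of 2880 ± 337 CPM in fasted hepatocyte nuclei and 1270 ± 237 CPM in fed ones at 3 h (SD, n = 4 each; log2 fold change 1.18 ± 0.20). It changed by 0.73 ± 0.20 at 8 h and by -0.57 ± 0.20 at 24 h (edgeR adjusted p = 0.0352). Ppargc1a, its coactivator, changed by 2.41 ± 0.55, 1.70 ± 0.54 and 2.37 ± 0.55 at 3, 8 and 24 h and by -0.21 ± 0.53, without a call, at 16 h. Lpin1, which acts with both, rose by 4.21 ± 0.76 at 3 h and 3.04 ± 0.72 at 8 h. The 8 h groups overlapped for Lpin1, at 1310 ± 1520 CPM in fasted and 159 ± 51.3 CPM in fed libraries. They also overlapped for Ppargc1a, at 310 ± 395 CPM and 95.1 ± 16.5 CPM (SD, n = 4 each).

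Purified nuclei were then set against the unsorted liver pools of the same line. In the hepatocyte line, 18 of 40 members were higher in tagged nuclei and 1 was lower, where 28.9% of 13065 genes were higher and 20.5% lower. The median member stood at 1.19 times its liver level, beside 1.18 for the 19 hepatocyte markers. The highest were Acaa1b (log2 tagged over liver 0.45 ± 0.18), Acadvl (0.41 ± 0.08) and Acox2 (0.36 ± 0.09). The lower one was Cd36, with 18.4 ± 7.7 CPM in hepatocyte-tagged nuclei and 33.9 ± 8.11 CPM in the pools (SD, n = 32 and 8; -0.92 ± 0.15, edgeR adjusted p = 2.92e-06).

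In the macrophage line, 36 members were lower in tagged nuclei than in liver and 2 were higher, where 40% of 13679 genes were lower and 37.2% higher. The median member stood at 0.543 of its liver level, and the 19 hepatocyte markers, all of them lower, at 0.428. Cd36 had 55.7 ± 18.4 CPM in macrophage-tagged nuclei and 33.1 ± 9.23 CPM in the pools (0.75 ± 0.12), and Slc27a1 had 26.3 ± 16.7 and 14.3 ± 9.15 CPM (0.94 ± 0.17; SD, n = 32 and 8, edgeR adjusted p = 5.37e-06). Of 15 markers of endothelial cells, which also express Cd36, 11 were lower and 4 higher in macrophage-tagged nuclei than in liver; their part in the level of Cd36 was not tested. Acsl4 (0.13 ± 0.10) and Slc27a4 (-0.07 ± 0.14) passed in neither direction. The lowest were Eci3 (-1.36 ± 0.22), Vnn1 (-1.27 ± 0.23) and Slc27a2 (-1.25 ± 0.14), about the median of the hepatocyte markers (-1.22).

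**Figure D4:**
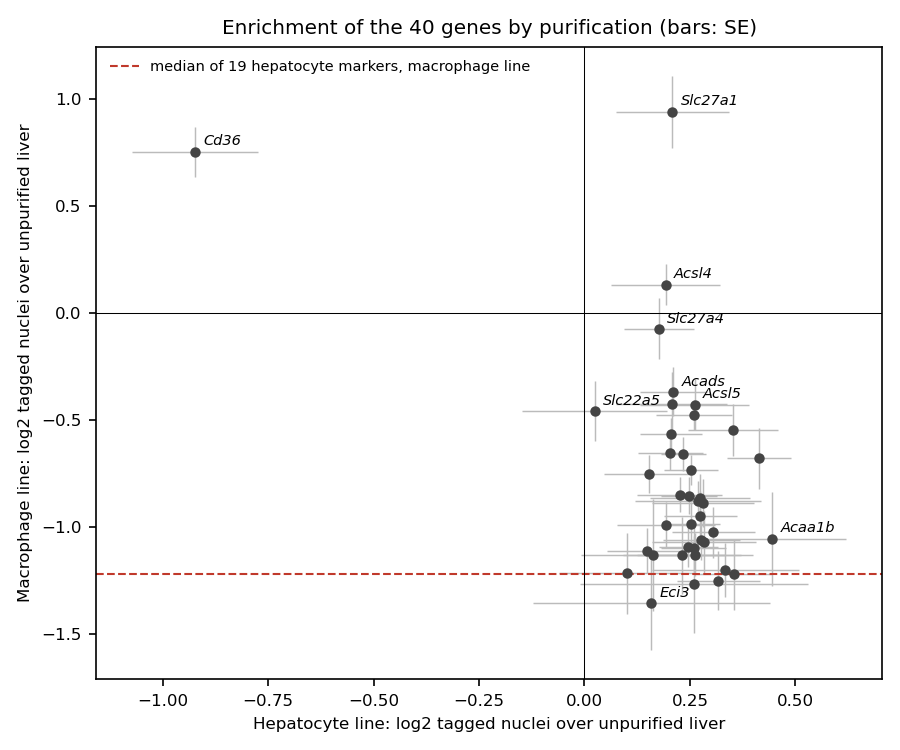
Log2 of tagged over liver nuclei for the 40 genes in the hepatocyte line (horizontal axis) and the macrophage line (vertical axis), with SE bars (32 tagged libraries and 8 pools per line); the dashed line is the median of 19 hepatocyte markers in the macrophage line, -1.22. Cd36 stands alone at the upper left, and Slc27a1 is the other gene above 0.5 on the vertical axis, while most genes lie between -1.3 and -0.4.

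Fasting raised many of the genes in macrophage-tagged nuclei as well. After 3 h, 6 of 40 rose and 2 fell, where 7.7% of the 13864 genes tested rose and 4.68% fell. After 8 h, 21 rose and 2 fell (7.44% and 5.4% of all genes), after 16 h, 22 rose and 2 fell (7.72% and 5.99%), and after 24 h, 13 rose and 1 fell (5.31% and 6.35%). The median log2 fold changes were 0.21, 0.73, 0.77 and 0.57. All 4 fasted libraries were above all 4 fed ones in 9, 17, 21 and 25 members (8.12%, 12%, 10.2% and 10.3% of all genes) and below them in 2 at each time (7.29%, 9.85%, 8.12% and 9.67%). Without replicate 3 of the 3 h fasted group, 4 rose and 2 fell at 3 h; without replicate 3 of the 8 h fasted group, 12 rose at 8 h; without replicate 1 of the 16 h fasted group, 13 rose at 16 h, and 14 without replicate 1 of the 16 h fed group. Fitted on the 8 libraries of 1 time alone, 2 rose at 3 h and 26 at 24 h.

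RNA of hepatocytes moved with feeding in these same libraries. The summed level of the 19 hepatocyte markers in macrophage-tagged nuclei had a median of 13600 CPM (range 13000 to 28500) in fasted and 9180 CPM (7620 to 12500) in fed libraries at 3 h. At 8 h it was 12800 CPM (11300 to 14600) when fasted and 7460 CPM (5790 to 8780) when fed, at 16 h 10500 CPM (8600 to 12400) and 8300 CPM (6330 to 8820), and at 24 h 15900 CPM (12500 to 18500) and 11700 CPM (7470 to 15700). Of the 19 markers, 5, 9, 3 and 1 rose at the 4 times (7.7%, 7.44%, 7.72% and 5.31% of all genes) and none fell. Most of the 40 genes are also hepatocyte genes, and the part of this RNA in the rises seen in macrophage-tagged nuclei was not tested.

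In all, 6 members rose at all 4 times in macrophage-tagged nuclei: Acadl, Acadm, Etfdh, Hsd17b4, Eci2 and Slc27a2. How many of all genes tested did so was not counted. Eci2 had 119, 66.2, 172 and 116 CPM in fasted libraries at 3 h and 37.3, 36.9, 44.5 and 35.5 CPM in fed ones, without overlap (1.62 ± 0.24, edgeR adjusted p = 8.13e-05). Acadm had 131, 141, 132 and 122 CPM in fasted libraries at 24 h and 54.9, 49.4, 47.3 and 46.3 CPM in fed ones, a wide gap (1.41 ± 0.18, adjusted p = 6.15e-06, edgeR). Acadl changed by 0.65, 0.62, 0.88 and 0.52 at the 4 times. Slc27a2 had 1380, 1050, 619 and 683 CPM when fasted and 146, 299, 383 and 220 CPM when fed at 16 h (1.83 ± 0.30), with the fasted libraries all higher. The 3 h call of Slc27a2 (1.11 ± 0.30) was lost without replicate 3 of the fasted group (adjusted p = 0.0822, edgeR), without replicate 4 of the fed group (0.0576) and when the 8 libraries of that time were fitted alone (0.0794). Of the calls of Acadl, that at 3 h was lost in the fit of those 8 libraries (0.0947) and that at 24 h without replicate 1 of the fed group (adjusted p = 0.0646, edgeR).

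In 1 library, replicate 3 of the 8 h fasted macrophage group, several genes stood high. At 8 h Ehhadh had 37.3, 55.3, 520 and 168 CPM in fasted macrophage-tagged libraries and 34.6, 36.2, 45.9 and 64.8 CPM in fed ones, with overlap and replicate 3 far above the rest. The change was 2.10 ± 0.58 (edgeR adjusted p = 0.0171) and, without that library, 0.94 (adjusted p = 0.314, edgeR); the call was also lost without replicate 1 or 2 of the fed group (0.0617 and 0.06). Replicate 3 was also the highest of the 4 for Pex11a, with 8.83, 12.2, 53.2 and 21.6 CPM when fasted and 3.39, 4.64, 6.06 and 5.54 CPM when fed (2.29 ± 0.41; 1.54 without it). For Crat it had 125 CPM beside 33.2, 30.6 and 66.3 CPM in the other fasted libraries and 23.6 to 30.8 CPM in fed ones (1.24 ± 0.30; 0.69 without it, adjusted p = 0.107, edgeR). Hadha (0.42, adjusted p = 0.0915, edgeR) and Vnn1 (0.87, adjusted p = 0.324, edgeR) also lost their 8 h call without it, and that of Vnn1 was lost on leaving out any of 5 of the 8 libraries.

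At 16 h, Vnn1 had 31.3, 12.3, 16 and 18.2 CPM in fasted macrophage-tagged nuclei and 1.66, 5.36, 2.56 and 4.23 CPM in fed ones, a clean separation (2.48 ± 0.49, edgeR adjusted p = 0.00147). Hadha had 169, 111, 100 and 102 CPM when fasted and 62.4, 64, 64.1 and 57.2 CPM when fed (0.96 ± 0.16). Ehhadh had 128, 316, 48.7 and 61.2 CPM when fasted and 23.2, 58.4, 47.5 and 36.6 CPM when fed, with overlap; its change of 1.74 ± 0.58 was 0.94 without replicate 2 of the fasted group (adjusted p = 0.273, edgeR). This call of Ehhadh was lost on leaving out any of 6 of the 8 libraries, with no filter on low counts (0.0522) and in the fit of the 8 libraries alone (0.0909). Acsl1 rose only at 16 h (0.95 ± 0.31), a call lost on leaving out any of 6 of the 8 libraries.

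Cd36 rose at 16 h in macrophage-tagged nuclei, with 110, 101, 71.4 and 76.3 CPM in fasted libraries and 41.3, 74.4, 41.9 and 47.7 CPM in fed ones. Fed replicate 2 lay among the fasted values (0.81 ± 0.21, edgeR adjusted p = 0.0128), and the call was lost without replicate 1 of the fasted group (adjusted p = 0.0636, edgeR) or of the fed group (0.0538). Acox2 rose at 24 h, with 185, 149, 182 and 248 CPM in fasted libraries and 18, 17.3, 94.7 and 68.4 CPM in fed ones. The fed libraries split widely but stayed below the fasted ones (1.95 ± 0.37, adjusted p = 0.000552, edgeR). Fabp1 passed at no time, with changes between -0.73 and 0.63.

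The falls in macrophage-tagged nuclei were again Acsl3, Eci3 and Acsl5. Acsl3 had 37.5, 38.5, 22 and 27.3 CPM in fasted libraries at 16 h and 67.5, 102, 102 and 87.5 CPM in fed ones, without overlap (-1.52 ± 0.23, edgeR adjusted p = 7.8e-05), and changed by -1.01 ± 0.22 at 8 h and -1.59 ± 0.23 at 24 h. Eci3 had 0.308, 0.458, 0.231 and 0.501 CPM when fasted and 2.13, 1.31, 2.95 and 3.25 CPM when fed at 8 h (-2.65 ± 0.46), and fell at 3 and 16 h as well. Acsl5 fell at 3 h, with 98.1, 116, 76.3 and 108 CPM when fasted and 246, 168, 266 and 170 CPM when fed (-1.09 ± 0.20). These 3 genes were lower in tagged than in liver nuclei of the macrophage line.

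Over time, the fasting effect differed for 2 members in macrophage-tagged nuclei (Acad10 and Crat; 4.65% of all genes), fed levels for 8 (12.8%) and fasted levels for 16 (38.1%). Leaving out 1 replicate number at a time gave 0 to 2, 1 to 5 and 6 to 21 members for these 3 counts. Crat changed by -0.35 ± 0.30 at 3 h, without a call, and by 1.24, 1.31 and 1.11 at the later times. Acad10 rose at 24 h alone, by 0.96 ± 0.18. Of the neighbouring steps, 3, 5, 4 and 5 of 6 carnitine and ketone genes rose at 3, 8, 16 and 24 h and none fell, with changes of 0.78, 0.86, 1.38 and 0.69 for Cpt1a. Of the 30 other oxidation genes, 3 rose and 2 fell, 6 and 4, 4 and 6, and 5 and 3. Of the 15 peroxisome assembly genes, 1, 2, 1 and 0 rose and none fell, and of the 21 regulators, 4, 6, 5 and 3 rose and 2, 2, 0 and 0 fell. Of all genes tested in macrophage-tagged nuclei, 7.7%, 7.44%, 7.72% and 5.31% rose at these times and 4.68%, 5.4%, 5.99% and 6.35% fell.

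The fasting effects of the 2 cell types were then compared directly, as the log2 fold change in hepatocyte-tagged minus that in macrophage-tagged nuclei. At 3 h the difference was positive (higher in hepatocytes) for 8 members and negative (lower in hepatocytes) for 1 (6.2% and 4.4% of 14011 genes); at 8 h, 5 and 1 (3.86% and 3.76%); at 16 h, none in either direction (0.407% and 0.128%; 1 and 2 members at an unadjusted p under 0.05, and 1 member, Crat, higher with DESeq2); at 24 h, 0 and 2 (2.1% and 1.95%). The median difference was 0.53, 0.42, -0.09 and -0.32 log2 units. Leaving out 1 replicate number at a time gave 3 to 7 higher members and no lower one at 3 h, 1 to 10 higher and 0 to 2 lower at 8 h, and 0 to 3 lower at 24 h.

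Slc22a5 differed most at the early times. Its change at 3 h was 2.57 in hepatocyte-tagged and 0.55 in macrophage-tagged nuclei, a difference of 2.07 ± 0.41 (edgeR adjusted p = 0.000586), and at 8 h 3.49 and 1.35, a difference of 2.23 ± 0.41 (adjusted p = 0.000275, edgeR). Slc27a1, one of the 2 members higher in macrophage-tagged nuclei than in liver, differed by 1.34 ± 0.40 at 3 h. The 5 mitochondrial genes called at 3 h were Acadl, Acadm, Acads, Acadvl and Hadha, with differences of 0.83 to 1.03. Acsl3 had the stronger fall in hepatocytes at 3 h (-0.96 ± 0.31), a call lost on leaving out any of the 4 replicate numbers, and without replicate 3 of the 3 h fasted macrophage group alone (-0.80, adjusted p = 0.115, edgeR). The 3 h calls of Acadl, Acadm and Hadha were also lost on leaving out 1 or more replicate numbers. Those of Acads, Acadvl and Slc27a1 were not followed one by one.

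At 8 h Ehhadh differed by 2.08 ± 0.67 (edgeR adjusted p = 0.0429) and Cd36 by 1.19 ± 0.39 (adjusted p = 0.0477, edgeR), and the call of Cd36 was lost on leaving out any replicate number and that of Ehhadh without number 1, 2 or 4. Acsl4 fell in hepatocyte nuclei at 8 h (-0.95) beside 0.03 in macrophage-tagged nuclei, a difference of -0.92 ± 0.30 (adjusted p = 0.0469, edgeR). This call of Acsl4, the 1 lower member at 8 h, was lost with RLE scaling and with no filter on low counts. At 24 h Slc27a2 had changed by -0.11 in hepatocyte-tagged and by 1.06 in macrophage-tagged nuclei, a difference of -1.18 ± 0.35 (adjusted p = 0.041, edgeR). Acsl5 differed at 24 h by -1.21 ± 0.32 (adjusted p = 0.024, edgeR), with -1.17 in hepatocyte-tagged and 0.03 in macrophage-tagged nuclei. The 24 h call of Slc27a2 was lost on leaving out any of the 4 replicate numbers (highest adjusted p = 0.238, edgeR) and with no filter on low counts (0.0502), and that of Acsl5 without number 1, 2 or 4. The part of hepatocyte RNA in the macrophage-tagged values of these differences was not tested.

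**Figure D5:**
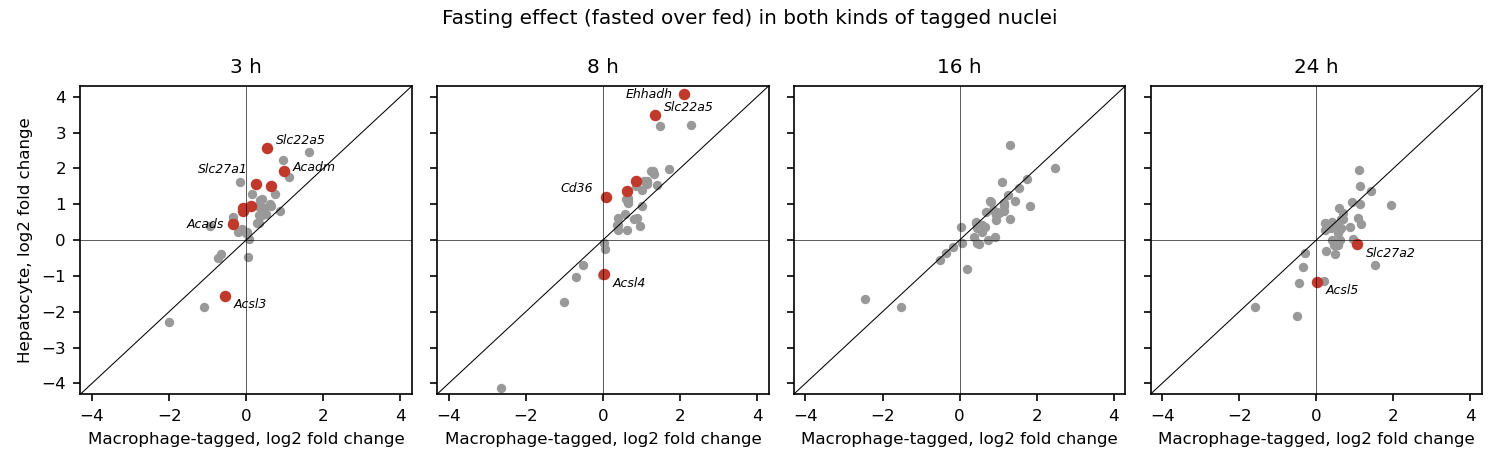
Log2 fold change, fasted over fed, of the 40 genes in hepatocyte-tagged nuclei (vertical axis) against macrophage-tagged nuclei (horizontal axis), 1 panel per time, with the line of equal change; red points passed the test of the difference (edgeR adjusted p under 0.05) and selected genes are named. More points lie above the line at 3 and 8 h and below it at 24 h.

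Fasting changed the set in unsorted liver nuclei too. Averaged over lines and times (8 fasted and 8 fed pools, 1 per condition and line), 26 of 40 members rose and 4 fell, where 12.4% and 15.1% of 13006 genes did, with a median of 0.46. The highest were Slc22a5 (1.71 ± 0.26), Pex11a (1.57 ± 0.28), Ehhadh (1.42 ± 0.37), Vnn1 (1.39 ± 0.33) and Crat (1.36 ± 0.22). The falls were Eci3 (-2.13 ± 0.42), Acsl3 (-1.54 ± 0.13), Acsl5 (-1.09 ± 0.18) and Acsl4 (-0.63 ± 0.09). Slc22a5 had 260, 356, 109 and 143 CPM in the fasted pools of the hepatocyte line at 3, 8, 16 and 24 h and 47.4, 35.4, 82.3 and 65.3 CPM in the fed ones. In the macrophage line it had 101, 169, 137 and 177 CPM in fasted pools and 41.7, 49.9, 46.1 and 62.2 CPM in fed ones, so fasted exceeded fed at every time in both lines. In the pools of the hepatocyte line alone no member passed (25 higher and 4 lower at an unadjusted p under 0.05, edgeR), and in those of the macrophage line alone 15 rose.

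The authors' deposited table of genes selective for hepatocytes holds 33 of the 40 members. In the authors' deposited table, at their adjusted p under 0.05, 21 of those 33 rose and 2 fell at 3 h, and 25 and 4 at 8 h. In the same deposited table of the authors, 15 rose and 2 fell at 16 h, and 9 and 5 at 24 h. It holds 4745 genes, and the share of them that rose or fell was not counted. The authors' deposited table for macrophages holds only Cd36 and Slc27a1, the same 2 members that were higher in macrophage-tagged nuclei than in liver.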

How the data were processed

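RNA from tagged and unsorted liver nuclei was made into stranded libraries without poly-A selection and read as 50-base pairs, per the labels' protocols. Tools listed in the submitters' processing notes are STAR 2.4.2a and DESeq2 1.24.0, with mm10 as the build; how reads were counted, filtered or assigned by strand is not stated there or in the labels. The deposited table holds raw counts per gene over whole gene bodies. The authors also deposited log2 fold changes and adjusted p-values (p-value columns) for genes selective for each cell type, which are quoted only as theirs; 64 per-sample columns of those tables were not used.

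Counts were analysed in R 4.3.3 with edgeR 4.0.16 (TMM scaling, filterByExpr with a minimum count of 10 and a total of 15, robust quasi-likelihood F-test, Benjamini-Hochberg threshold 0.05). Groups came from the labels. One fit per line held all 32 tagged libraries. Tagged against liver nuclei, the difference between cell types and the liver pools had fits of their own, the pools with terms for line, time and feeding. SE was the absolute log2 fold change divided by the square root of F. The tests were checked on simulated counts. No same-group pair of 96 agreed within sampling noise (lowest chi-square per degree of freedom 12.4).

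The members and lists were chosen with earlier results of these data known. All members could be named; values per library were given for the 3 highest and 2 lowest called members with a mean of at least 1 CPM per cell type and time and for Acadm, Acadl, Hadha, Ehhadh, Acsl1, Slc27a2, Cd36, Fabp1 and Vnn1. One gene of the carnitine and ketone list is not reported here and is left out of its counts. Other genes shown by library were chosen after their values were seen, to fill each role. Alternatives were another scaling, no filter, DESeq2 1.42.0, a block for runs of library numbers, fits on 1 time alone and leaving out replicates. Start and end positions follow the deposited table, counted from 1, on mm10.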

Additional observations from a re-analysis of the deposited data

Results flagged for a closer look

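Single libraries stood apart from the other three of their group in 15 of the 272 groups examined (17 members, 16 groups of 4), or 5.51%, where chance gives about 1 in 20. In hepatocyte nuclei after 3 h of fasting, replicate 1 was high for Acadl (202 CPM), Acadm (342 CPM) and Eci2 (397 CPM), and replicate 2 for Eci3 (1.53 CPM) and Slc27a2 (2360 CPM). At the later times the fasted libraries that stood apart were replicate 3 at 8 h for Vnn1 (70.1 CPM, high), replicate 1 at 16 h for Acsl1 (1070 CPM, low) and replicate 4 at 24 h for Pex11a (24.5 CPM, low). Among fed hepatocyte libraries, replicate 3 at 16 h was low for Acadm (64.1 CPM).

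In macrophage-tagged nuclei after 3 h of fasting, replicate 2 was low for Acadm (76.3 CPM) and replicate 3 high for Acsl1 (500 CPM) and Fabp1 (66.4 CPM). Replicate 4 of the 3 h fed group was low for Slc27a2 (155 CPM). At 16 h, fasted replicate 1 was high for Hadha (169 CPM) and fed replicate 2 for Eci3 (4.49 CPM).

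The fasting effect differed between the cell types for 17 member and time pairs (edgeR interaction test; hepatocyte-tagged minus macrophage-tagged log2 fold change). At 3 h these were Slc22a5 (2.07), Slc27a1 (1.34), Acadvl (1.03), Acadm (0.98), Acaa1a (0.93), Acadl (0.91), Hadha (0.85), Acads (0.83) and Acsl3 (-0.96). At 8 h they were Slc22a5 (2.23), Ehhadh (2.08), Cd36 (1.19), Hsd17b4 (0.85), Acadl (0.84) and Acsl4 (-0.92), and at 24 h Acsl5 (-1.21) and Slc27a2 (-1.18).

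The fasting effect differed between the 4 times for 21 members in hepatocyte nuclei. The edgeR adjusted p was 1.61e-05 for Slc27a2, 1.9e-05 for Pex11a, 2.08e-05 for Ehhadh, 2.45e-05 for Eci2, 0.000101 for Crat, 0.000172 for Acad11, 0.000232 for Decr2 and 0.000305 for Acadl. It was 0.00106 for Acsl1, 0.00153 for Slc22a5, 0.00215 for Acaa1b, 0.00248 for Vnn1, 0.00366 for Acaa1a and 0.00694 for Eci1. The remaining edgeR adjusted p-values were 0.0122 for Acadm, 0.0125 for Hsd17b4, 0.0177 for Acsl5, 0.0359 for Fabp1, 0.0414 for Decr1, 0.0473 for Mlycd and 0.0485 for Eci3. In macrophage-tagged nuclei the effect differed between times for Acad10 (edgeR adjusted p = 0.0109) and Crat (0.035).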

How the results depend on the processing

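Over all alternatives run, 307 counts of members stayed within 1.5 times the main count and 49 did not. Single values were followed only for the 17 members picked by rule for values per library. Of these values, 2503 stayed on their side of the threshold, 127 lost the call and 38 gained one. None that passed in either setting changed sign, and the cause was not tested. Calls of the other members were not followed one by one, so the lack of a stated loss says nothing of how firm they are. In hepatocyte nuclei the counts of members that moved were of falls at 16 h, 1 to 3 on leaving out single libraries (main 2). In macrophage-tagged nuclei the members risen numbered 2 at 3 h (main 6) and 26 at 24 h (main 13) when only the libraries of that time were fitted, and DESeq2 gave 4 falls at 8 h (main 2). On leaving out single libraries, 12 to 23 rose at 8 h (main 21; 12 without fasted replicate 3) and 13 to 23 at 16 h (main 22; 13 without fasted replicate 1). On leaving out replicate numbers, the effect by time was called for 0 to 2 members (main 2), fed times for 1 to 5 (main 8) and fasted times for 6 to 21 (main 16). Differences between the cell types moved most. Leaving out replicate numbers gave 3 to 7 higher (main 8) and 0 lower (main 1) at 3 h, 1 to 10 higher (main 5) and 0 to 2 lower (main 1) at 8 h, and 0 to 3 lower (main 2) at 24 h. RLE scaling gave 0 lower at 8 h, no filter gave 3 higher and 0 lower at 8 h and 1 lower at 24 h, and the libraries of 1 time alone gave 0 lower at 3 h, 3 higher at 8 h, and 1 higher and 7 lower at 24 h. Without replicate 3 of the 3 h fasted macrophage group, an alternative chosen after seeing the data, 0 were lower at 3 h. DESeq2 called 1 higher at 16 h. In liver, pools of the hepatocyte line alone gave 0 rises and 0 falls, and those of the macrophage line alone 15 rises (main 26).

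Titles hold running library numbers, and no label says that they pair libraries. Within a run the mean correlation of deviations from the group means was -0.003 in hepatocyte and 0.027 in macrophage libraries, so the numbers were not used as pairs; with the run as a replicate block the effect by time was called for 1 member in macrophage-tagged nuclei (main 2), and no other count moved by over 1.5 times. Levels under about 1 CPM, as for Eci3 in fasted nuclei, rest on few counts per library.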
